A study of Mus musculus with 6 samples.

Results

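Costimulation through CD40 and through the B7 proteins was examined in macrophages sorted from mouse heart grafts, across 10 genes chosen by name: Cd40 and its ligand gene Cd40lg, the adaptor genes Traf1, Traf2, Traf3, Traf5 and Traf6, the B7 genes Cd80 and Cd86, and their receptor gene Cd28. Each gene was read on its brightest probe set among those annotated with exactly 1 gene symbol. By this rule 9 of the 10 genes were measured, out of 22180 genes in all, and Traf3 was not analysed here. Every measured gene had 1 such probe set. The samples came from BALB/c hearts grafted into C57BL/6 recipients and harvested on day 6. In 3 samples the recipients had received mTORi-HDL, a lipoprotein nanoparticle loaded with an inhibitor of the kinase mTOR, at 5 mg/kg on days 0, 2 and 5. In the other 3 samples the recipients had received no treatment and rejected the graft. The age and sex of the mice and the sort markers are not given in the sources used here, nor whether a sample is 1 mouse or a pool, so p-values measure only the spread between these samples. No group with the empty particle was analysed here, so the inhibitor and its carrier cannot be told apart.

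CD40 is a receptor of the TNF receptor family on macrophages, dendritic cells and B cells, and its ligand appears on activated helper T cells. Once bound, the tail of CD40 recruits TRAF adaptor proteins, which pass the signal to NF-kB and stress kinases. Among the outcomes is a rise of CD80 and CD86, which bind CD28 on T cells as the second signal of T cell activation, or the inhibitory receptor CTLA-4 with higher affinity. Antibodies against CD40 or its ligand and soluble CTLA-4 are known to prolong the survival of grafts.

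The array named mTORi-HDL 1 stood apart. Its values over all probe sets had an SD of 1.68 on the log2 scale, against 2.04 to 2.09 on the other 5 arrays, and it correlated with those at r = 0.708 to 0.741, where pairs of those 5 gave 0.892 to 0.912. The values of mTORi-HDL 1 thus had a narrower spread. A narrower spread alone does not lower a correlation, so this array also differed from the others gene by gene. The reason was not tested, and results are given with and without this array. Defining macrophage transcripts were present but uneven: Adgre1, a macrophage surface receptor gene, lay at 4.93 on mTORi-HDL 1 and at 6.05 to 8.72 on the other arrays, and the lysosomal gene Cd68 at 8.78 to 10.87 on all 6. Transcripts of T cells were also present in the sorted material, with Cd3e of the T cell receptor complex at 6.46 on mTORi-HDL 1 and at 9.63 to 10.85 elsewhere. On untreated arrays the mean of 18 T cell markers was 8.63, 8.69 and 8.31, and that of 14 macrophage markers was 7.59, 7.69 and 7.11. On treated arrays these means were 6.03, 7.71 and 7.66 for T cell and 7.22, 8.35 and 8.98 for macrophage markers. Readings of different genes are not on a common scale of amount, so the means of these lists cannot be ranked against each other. The share of T cells in the samples was not tested.

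The comparison asked whether readings of the costimulatory genes differed between sorted material from treated recipients and from untreated recipients, which rejected the graft. Treatment and the state of the graft cannot be told apart in this design. Cd40 and Cd86 were higher in treated samples by 1.39 and 1.69 on the log2 scale, and Cd28 and Cd40lg lower, with differences of -1.74 and -1.12. The 4 measured TRAF genes and Cd80 differed by less than their standard errors or little more. In limma's test 0 of the 9 genes, like 0 of all 22180 (0%), passed an adjusted p of 0.05. At an unadjusted p under 0.05 there were 4 of the 9 (Cd40, Cd86, Cd28 and Cd40lg), against 4.64% of all genes. Without mTORi-HDL 1 there were 3 of the 9 (Cd40, Cd86 and Cd28), against 6.97% of all genes. The count was 2 (Cd40 and Cd28) when mTORi-HDL 2, untreated 1 or untreated 3 was left out. These genes, and the lists below, were chosen with earlier results of these data known. Such counts therefore describe these arrays and are not an independent test of the genes.

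**Figure D1:**
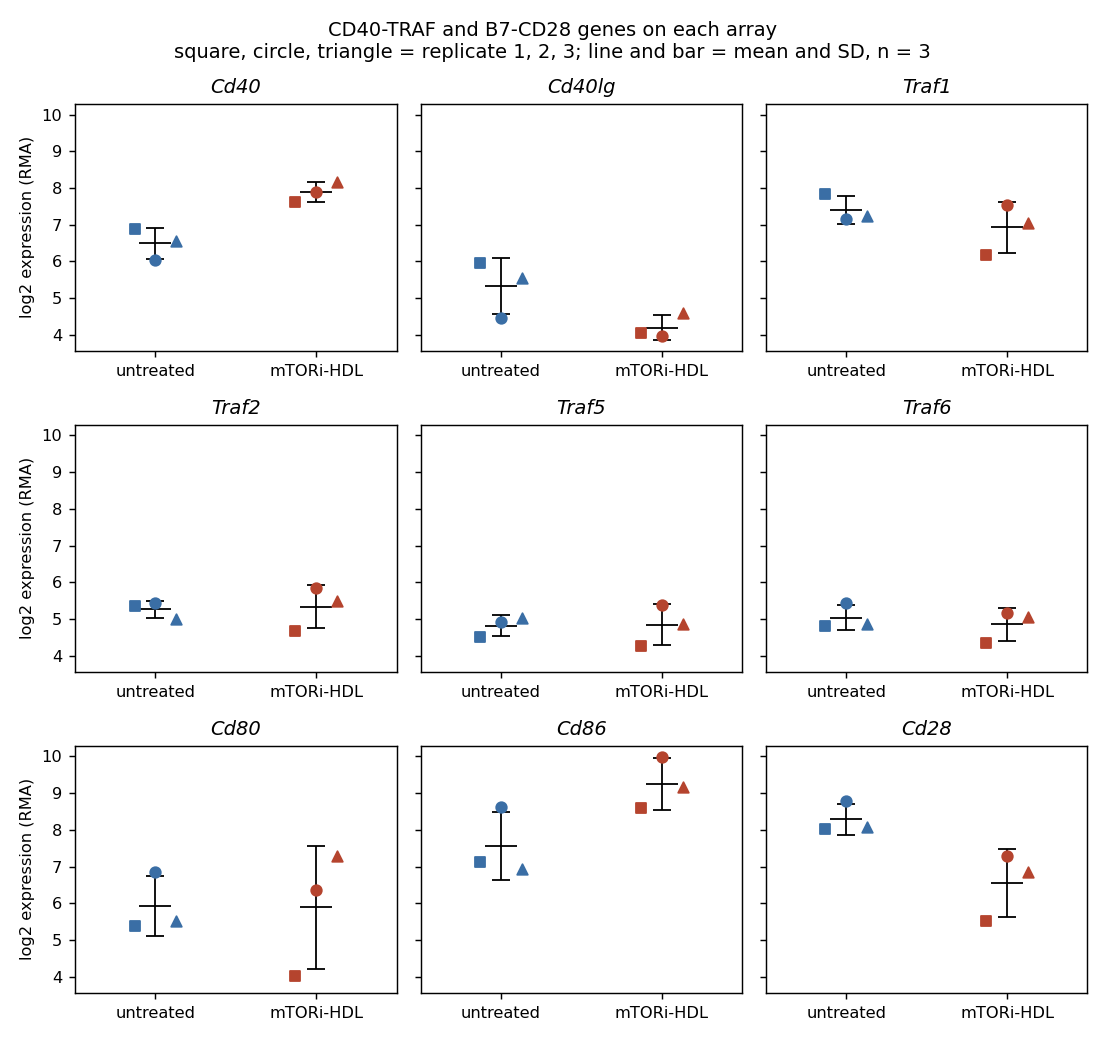
Log2 expression (RMA) of the 9 measured genes on each array, with the mean and SD of each group (n = 3). Treated and untreated arrays do not overlap for Cd40 and Cd28, and overlap for the other 7 genes; the square marks replicate 1, which in the treated group is the lowest of the 3 for 8 of the 9 genes.

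Cd40, the receptor itself, read 7.62, 7.89 and 8.15 on the treated arrays and 6.88, 6.03 and 6.57 on the untreated arrays. Every treated array lay above every untreated array, an order found for 5.37% of all genes in this direction. The means were 7.89 ± 0.27 and 6.49 ± 0.43 (SD, n = 3 each). The log2 fold change was 1.39 ± 0.32 (SE), with a 95% confidence interval of 0.65 to 2.14 (limma, unadjusted p = 0.0028, adjusted p = 0.696). Cd40 was nearly as high on mTORi-HDL 1 as on the other treated arrays, and without that array the log2 fold change was 1.53 ± 0.30 (adjusted p = 0.287). In the 9 alternative settings that alter the fold change of a member it ranged from 1.16 to 1.70, and in all 14 settings the unadjusted p was under 0.05.

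Cd40lg encodes the ligand, CD154, carried mainly by activated helper T cells. It read 4.05, 3.96 and 4.58 on the treated arrays and 5.96, 4.47 and 5.54 on the untreated arrays. The groups overlapped, since untreated 2 lay below mTORi-HDL 3. The means were 4.20 ± 0.33 and 5.32 ± 0.77 (SD, n = 3 each). These are low readings, where the median of all genes was 4.03 to 4.38 on the 6 arrays. The log2 fold change was -1.12 ± 0.43 (SE), with a 95% confidence interval of -2.12 to -0.13 (limma, adjusted p = 0.89). Without mTORi-HDL 1 it was -1.05 ± 0.46, with an interval of -2.15 to 0.05. Receptor and ligand transcripts thus differed in opposite directions between the groups.

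The TRAF genes encode the adaptors that bind the tail of CD40. TRAF1, which is itself induced by NF-kB and binds together with TRAF2, was read at 6.18, 7.54 and 7.06 in treated and 7.84, 7.15 and 7.22 in untreated samples. Traf1 had a log2 fold change of -0.48 ± 0.41 (SE) over all arrays and -0.11 ± 0.30 without mTORi-HDL 1, which held its lowest value. Traf2, which brings the ubiquitin ligases of the cIAP family to the receptor, read 4.68, 5.84 and 5.50 in treated and 5.35, 5.43 and 5.01 in untreated samples. Its log2 fold change was 0.08 ± 0.36 over all arrays. Without mTORi-HDL 1 it was 0.41 ± 0.24, and both remaining treated arrays lay above the untreated ones, an order then found for 9.75% of all genes.

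Traf5, a close relative of Traf2 and Traf3 in function, read 4.27, 5.39 and 4.87 in treated and 4.51, 4.92 and 5.03 in untreated samples. The groups overlapped fully, and the log2 fold change was 0.02 ± 0.35 (SE), or 0.31 ± 0.28 without mTORi-HDL 1. TRAF6 binds CD40 at a site of its own and also serves Toll-like receptors and the interleukin-1 receptor. Traf6 read 4.34, 5.17 and 5.05 in treated and 4.82, 5.44 and 4.85 in untreated samples, and these overlapped. Its log2 fold change was -0.19 ± 0.34, or 0.07 ± 0.27 without mTORi-HDL 1. The 95% confidence intervals over all arrays were -1.43 to 0.47 for Traf1, -0.76 to 0.91 for Traf2, -0.80 to 0.85 for Traf5 and -0.97 to 0.60 for Traf6, so these data do not exclude differences within those bounds. All 4 TRAF genes read lowest of the treated group on mTORi-HDL 1. Traf5 and Traf6 gave low readings, as Cd40lg did, where the median of all genes was 4.03 to 4.38.

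Cd86, the B7 gene that resting antigen-presenting cells already express, read 8.60, 9.99 and 9.16 on the treated arrays and 7.12, 8.62 and 6.94 on the untreated arrays. Untreated 2 was the highest untreated array and matched mTORi-HDL 1, so the groups overlapped by this pair. The means were 9.25 ± 0.70 and 7.56 ± 0.92 (SD, n = 3 each). The log2 fold change was 1.69 ± 0.54 (SE), with a 95% confidence interval of 0.42 to 2.96 (limma, unadjusted p = 0.0158, adjusted p = 0.89). Without mTORi-HDL 1 it was 2.02 ± 0.54 (adjusted p = 0.446), and the groups no longer overlapped. Cd86 was higher in treated samples by 1.32 to 2.22 in the 9 settings that alter its fold change, and was at an unadjusted p under 0.05 in 11 of all 14.

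Cd80, the B7 gene that appears mainly on activated cells, spread widely. It read 4.01, 6.36 and 7.28 on the treated arrays and 5.38, 6.85 and 5.52 on the untreated arrays. The treated group held both the lowest and the highest value of the 6, with a mean of 5.88 ± 1.69 against 5.92 ± 0.81 (SD, n = 3 each). The log2 fold change was -0.03 ± 0.83 (SE), with a 95% confidence interval of -1.97 to 1.90. Without mTORi-HDL 1, its lowest array, it was 0.90 ± 0.51, with an interval of -0.31 to 2.12 (limma, adjusted p = 0.819). In the untreated group Cd80 and Cd86 were both highest on untreated 2, on which Cd40 was lowest.

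The difference between the readings of Cd86 and Cd80 within an array, a comparison chosen after the values were seen, was 4.59, 3.63 and 1.87 on the treated arrays and 1.73, 1.77 and 1.42 on the untreated arrays. Every treated array lay above every untreated array. The mean of this difference was larger by 1.73 in treated samples, or by 1.11 without mTORi-HDL 1 (two-sided exact permutation test, p = 0.1, the smallest that 3 against 3 allows; adjusted p = 0.48 over 6 such differences).

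Cd28 encodes the receptor for both B7 proteins and is a gene of T cells. It read 5.52, 7.28 and 6.85 on the treated arrays and 8.03, 8.78 and 8.07 on the untreated arrays. Every treated array lay below every untreated array, an order found for 5.53% of all genes in this direction. The means were 6.55 ± 0.92 and 8.29 ± 0.42 (SD, n = 3 each). The log2 fold change was -1.74 ± 0.49 (SE), with a 95% confidence interval of -2.88 to -0.60 (limma, unadjusted p = 0.00817, adjusted p = 0.871). Without mTORi-HDL 1, on which it was lowest, it was -1.23 ± 0.31 (adjusted p = 0.416), with the same order of arrays, then found for 12.5% of all genes. Cd28 was lower in the 9 settings that alter its fold change, with values of -2.11 to -1.23, and was at an unadjusted p under 0.05 in all 14.

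**Figure D2:**
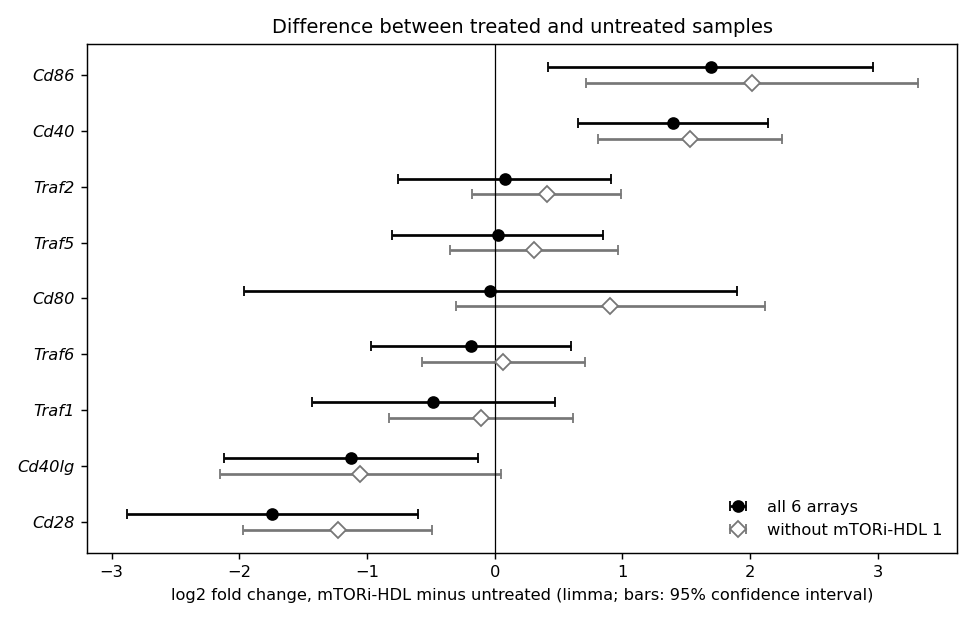
Log2 fold change (treated minus untreated, limma) of the 9 genes with 95% confidence intervals, over all 6 arrays (filled circles) and without mTORi-HDL 1 (open diamonds). Intervals for Cd86, Cd40 and Cd28 lie on 1 side of 0 in both; that of Cd40lg crosses 0 once the array is left out, and Cd80 moves from -0.03 to 0.90.

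Markers of the cell types in the sorted material moved beside these genes. In such bulk samples, fewer cells of a type and less RNA per cell cannot be told apart. Of 18 measured T cell markers, all were lower in treated samples, 10 at an unadjusted p under 0.05 and 0 past adjustment, against 41.8% of all genes for a lower mean and 3.07% for a lower mean at that p. Without mTORi-HDL 1 all 18 were again lower, 12 at that p, against 53.4% and 3.51% of all genes. Set against the mean of untreated arrays, their mean was -2.52, -0.83 and -0.89 on mTORi-HDL 1, 2 and 3, and between -0.24 and 0.14 on untreated arrays. Cd28 minus the mean of these T cell markers was -0.50, -0.43 and -0.81 on treated arrays and -0.60, 0.09 and -0.24 on untreated arrays. Relative to the T cell markers, then, Cd28 overlapped between the groups, with a mean difference of -0.33, or -0.37 without mTORi-HDL 1 (two-sided exact permutation test, p = 0.3). Cd40lg minus the same mean differed by 0.29, and by -0.19 without mTORi-HDL 1, and it also overlapped (two-sided exact permutation test, p = 0.7). Both p-values belong to the 6 differences chosen after the values were seen, with adjusted p = 0.48 and 0.7. The smallest p that this test allows with these arrays is 0.1. The overlap therefore does not show that either gene followed the T cell markers.

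Of 14 measured macrophage markers 12 were higher in treated samples, 4 at an unadjusted p under 0.05 and 0 past adjustment, where 58.2% of all genes were higher and 1.57% were higher at that p. Without mTORi-HDL 1 all 14 were higher, 9 of them at that p, against 46.6% and 3.47% of all genes, and their median difference was 1.11 in place of 0.74. Set against the mean of untreated arrays, their mean was -0.25, 0.88 and 1.52 on mTORi-HDL 1, 2 and 3, and between -0.35 and 0.23 on untreated arrays. Fcgr1, a high-affinity Fc receptor, had a log2 fold change of 1.84 ± 0.44 (SE) and Fcgr3, another Fc receptor, 0.999 ± 0.295. Cd40 minus the mean of the macrophage markers was 0.40, -0.46 and -0.83 on treated and -0.71, -1.66 and -0.54 on untreated arrays, which overlapped (mean difference 0.68; two-sided exact permutation test, p = 0.4). Without mTORi-HDL 1 this mean difference was 0.33. For Cd86 the same difference was 1.39, 1.65 and 0.17 on treated and -0.47, 0.93 and -0.17 on untreated arrays, also with overlap (mean difference 0.97, or 0.82 without mTORi-HDL 1; p = 0.2 in the same exact test). For Cd80 the mean difference was -0.75 (p = 0.4 in the same exact test), and -0.29 without mTORi-HDL 1. These tests too allow no p under 0.1 and were chosen after the values were seen, with adjusted p = 0.48 for each. They cannot decide whether the genes followed the macrophage markers. On mTORi-HDL 1 the macrophage markers were below the untreated mean while Cd40 and Cd86 were above theirs.

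**Figure D3:**
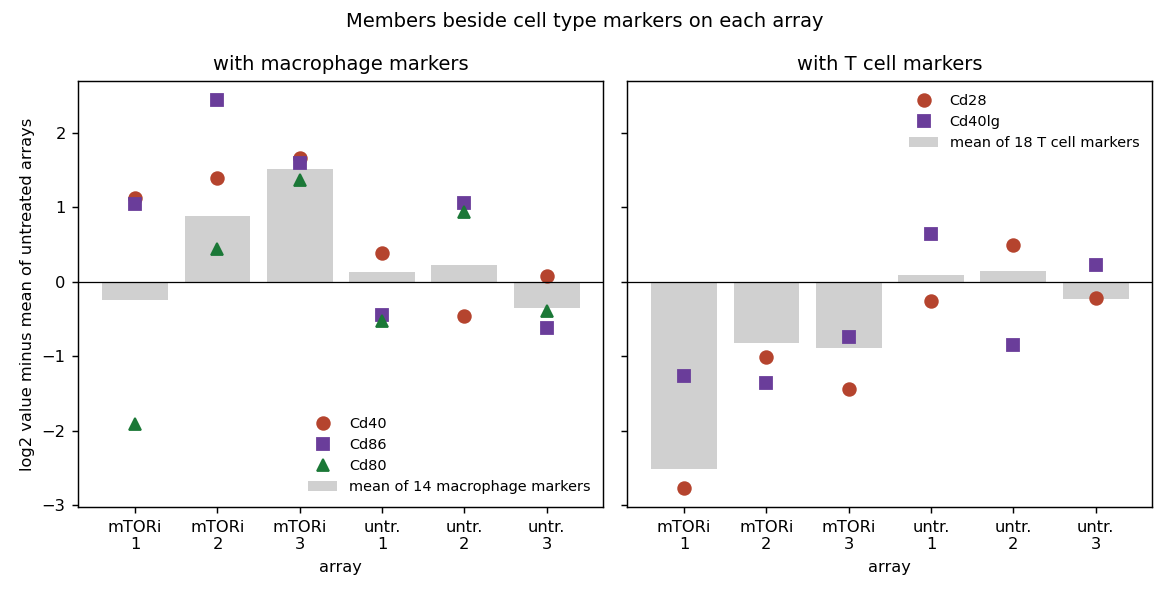
Log2 values minus the mean of the untreated arrays, for Cd40, Cd86 and Cd80 (left, points) beside the mean of 14 macrophage markers (bars), and for Cd28 and Cd40lg (right, points) beside the mean of 18 T cell markers (bars), on each array. T cell markers lie at -2.52, -0.83 and -0.89 on the treated arrays, where Cd28 is also lower, and macrophage markers at -0.25, 0.88 and 1.52.

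Dendritic cells and B cells also express CD40, CD80 and CD86. Of 12 measured dendritic cell markers 8 were higher on average, a share near the 58.2% of all genes. At an unadjusted p under 0.05, 1 was higher and 1 lower (1.57% and 3.07% of all genes), or 3 and 0 without mTORi-HDL 1 (3.47% and 3.51%). Their mean, set against that of untreated arrays, was -0.22, 0.75 and 0.29 on treated arrays and -0.15 to 0.19 on untreated arrays. Batf3, a transcription factor gene of the dendritic cells that cross-present antigen, had a log2 fold change of 1.65 ± 0.35 (SE), and Itgae, an integrin gene on the same list, one of -1.11 ± 0.44. Without mTORi-HDL 1, 9 of the 12 dendritic cell markers were higher, against 46.6% of all genes, with a median of 0.09 in place of 0.22. The 3 at that p were then Batf3 and, named after their values were seen, Xcr1 (1.69) and Flt3 (1.45), while Itgae had -0.72. Of 12 measured B and plasma cell markers 9 had a lower mean, 4 with an unadjusted p under 0.05, against 41.8% and 3.07% of all genes. Without mTORi-HDL 1 these counts were 9 and 2, against 53.4% and 3.51%. Their mean on the same scale was -0.87, -0.27 and -0.56 on treated and -0.32 to 0.18 on untreated arrays. Of these markers Fcrla and Spib had log2 fold changes of -1.47 and -1.32. The part of either cell type in the values of Cd40, Cd80 and Cd86 was not tested. Among the remaining lists the median was -0.62 for 10 NK cell markers. Klrg1 and Gzmb, with the smallest unadjusted p of these, had -2.10 and -1.06. For 9 fibroblast and mural markers the median was 1.16, and Dcn and Rgs5, chosen likewise, had 2.22 and 1.16. These markers were uneven. Of them 8 were higher, 4 at an unadjusted p under 0.05, and 1 lower, against 58.2%, 1.57% and 41.8% of all genes. Col1a1, Col3a1 and Pdgfrb, named after their values were seen, had 0.30, 0.09 and -0.02. Klrg1 in treated samples (mean 3.66) and Rgs5 in both groups (4.34 treated, 3.19 untreated) read low. The medians were 0.15 for 10 neutrophil, 0.16 for 8 endothelial and 0.34 for 8 cardiomyocyte markers, against 0.08 for all genes, and 0 markers of any list passed adjustment. Without mTORi-HDL 1 the medians were -0.26 for NK cell, 1.21 for fibroblast and mural, -0.18 for neutrophil, 0.02 for endothelial and 0.11 for cardiomyocyte markers, against -0.03 for all genes, so that of the neutrophil markers changed sign, and Gzmb had a difference of -0.66. The NK cell markers were uneven. Over all arrays 9 were lower and 1 higher, against 41.8% and 58.2% of all genes. Without mTORi-HDL 1, 7 were lower and 3 higher, against 53.4% and 46.6%. Ncr1 and Klrk1, named after their values were seen, had -0.06 and 0.19, or 0.73 and 0.20 without that array.

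Further genes of CD40 signalling include kinases, ubiquitin enzymes, NF-kB subunits and inhibitors. Of 31 measured, 12 were higher and 19 lower, with 0 higher and 2 lower at an unadjusted p under 0.05 (1.57% and 3.07% of all genes) and a median of -0.19 against 0.08 for all genes. Without mTORi-HDL 1, 19 were higher and 12 lower, against 46.6% and 53.4% of all genes. At that p 3 were higher and 1 lower, against 3.47% and 3.51% of all genes, and the median was 0.04 against -0.03. Then 8 of the 31 had all treated above all untreated arrays and 2 had the reverse, against 9.75% and 12.5% of all genes. Ube2n, the ubiquitin-conjugating enzyme that works with TRAF6, read 5.94, 6.93 and 6.84 in treated and 7.96, 8.38 and 7.24 in untreated samples, all treated below all untreated (log2 fold change -1.29 ± 0.41, SE). Traf3ip3, whose product binds TRAF3, had a log2 fold change of -1.18 ± 0.42 with the same order. Nfkbie, an NF-kB inhibitor gene, read 5.96, 7.31 and 6.75 in treated and 5.88, 6.28 and 5.54 in untreated samples. Its log2 fold change was 0.78 ± 0.40 over all arrays, and 1.13 ± 0.31 when mTORi-HDL 1 was left out. Map3k7, the kinase TAK1 below TRAF6, had -0.96 ± 0.56 and, without that array, -0.30 ± 0.25. Relb and Rel, NF-kB subunits named after their values were seen, differed by 0.81 and 0.87 when mTORi-HDL 1 was left out, and by 0.47 and -0.19 over all arrays.

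Of 24 measured TNF-family costimulatory ligands and receptors, 10 were higher and 14 lower, with 0 higher and 3 lower at an unadjusted p under 0.05 and a median of -0.03. Of all genes 58.2% were higher and 41.8% lower, and 3.07% were lower at that p. Without mTORi-HDL 1 there were 9 higher and 15 lower, against 46.6% and 53.4% of all genes, and the median was -0.10. Again 3 were lower at that p, against 3.51% of all genes. Over all arrays the 3 were Cd27, Tnfrsf18 and Tnfrsf9, receptors found on T cells. Without mTORi-HDL 1 Tnfrsf4 took the place of Tnfrsf9. Cd27 read 3.85, 6.58 and 5.64 in treated and 7.15, 8.38 and 7.54 in untreated samples, a log2 fold change of -2.33 ± 0.68 (SE), or -1.58 ± 0.44 without mTORi-HDL 1. Tnfrsf18, which encodes GITR, had -0.94 ± 0.30 and Tnfrsf9, which encodes 4-1BB, had -1.54 ± 0.63, or -0.96 ± 0.51 without mTORi-HDL 1. Tnfrsf4, which encodes OX40, was even within each group at 7.86, 7.89 and 7.97 in treated and 8.68, 8.45 and 8.33 in untreated samples, with a log2 fold change of -0.58 ± 0.25. All 4 of these receptors signal through TRAF adaptors. Their values lay beside the lower T cell markers given above, whose part in them was not tested.

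Among 10 other genes of the B7 and CD28 families 4 were higher and 6 lower, with 0 higher and 2 lower at an unadjusted p under 0.05 (41.8% and 3.07% of all genes were lower and lower at that p) and a median of -0.78. Without mTORi-HDL 1 the counts were the same, against 53.4% and 3.51% of all genes, and the median was -0.24. Ctla4, the inhibitory counterpart of Cd28, read 7.43, 7.65 and 7.57 in treated and 8.92, 9.32 and 8.86 in untreated samples, a log2 fold change of -1.48 ± 0.26 (SE; limma, adjusted p = 0.471). Pdcd1, which encodes PD-1, had -2.21 ± 0.49. Icos and Btla, also receptors of lymphocytes, had -1.45 ± 0.70 and -1.16 ± 0.59, and both overlapped between groups. Without mTORi-HDL 1 they had -0.78 and -0.85, and Icos ranged from -2.28 to -0.78 as each array was left out. All 15 measured genes of CD28 signalling were lower, 0 of them at an unadjusted p under 0.05, where 41.8% of all genes were lower, with a median of -0.40. Without mTORi-HDL 1, 9 were lower and 6 higher, where 53.4% of all genes were lower, with a median of -0.06. Prkcq, Pik3ca, Grap2 and Akt1, kinases and an adaptor below CD28, had log2 fold changes of -0.77, -0.88, -0.78 and -0.39, all overlapping between groups. Without mTORi-HDL 1 these were -0.33, -0.18, -0.30 and -0.48, and for Akt1 both remaining treated arrays then lay below the untreated ones.

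Genes that NF-kB induces after CD40 ligation gave a mixed picture that turned on the same array. Of 16 measured, 11 were higher and 5 lower, where 58.2% of all genes were higher, with 0 at an unadjusted p under 0.05 in either direction and a median of 0.15. Without mTORi-HDL 1, 15 were higher and 1 lower, where 46.6% of all genes were higher, with a median of 0.72 against -0.03 for all genes. Then 5 were higher at an unadjusted p under 0.05, where 3.47% of all genes were, and 0 passed adjustment. These 5, named after their values were seen, were Il1b, Cd83, Ccl22, Irf1 and Ptgs2. Ccl22, a chemokine of dendritic cells and macrophages, read 4.75 on mTORi-HDL 1, 8.10 and 7.15 on the other treated arrays and 6.33, 5.81 and 4.51 on untreated arrays. Cd83, a marker of mature antigen-presenting cells, read 4.87 on mTORi-HDL 1, 8.51 and 8.66 on the other treated arrays and 7.27, 6.42 and 7.74 on untreated arrays. Vcam1, an adhesion molecule, had a log2 fold change of 0.72 ± 0.39 (SE) over all arrays, Ccl17, a chemokine gene also on the dendritic cell list, 1.48 ± 0.84, Mmp9, a matrix protease, 0.65 ± 0.37 (0.39 ± 0.32 without mTORi-HDL 1) and Il12b, a subunit of interleukin-12, 0.76 ± 0.52. Il12b read low, with means of 4.14 in treated and 3.37 in untreated samples.

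**Figure D4:**
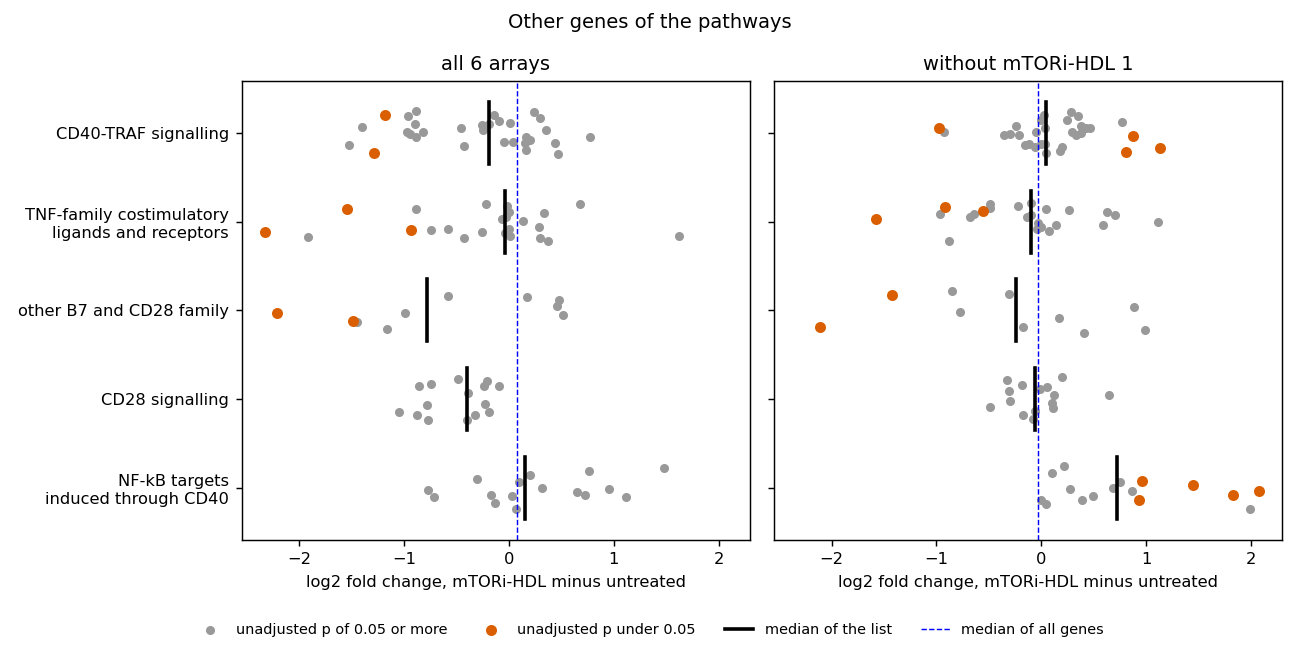
Log2 fold change (treated minus untreated) of each measured gene of 5 pathway lists, over all 6 arrays (left) and without mTORi-HDL 1 (right); orange points have an unadjusted p under 0.05, black bars are list medians and the dashed line is the median of all genes. The median of NF-kB targets moves from 0.15 to 0.72 and that of CD28 signalling from -0.40 to -0.06 when the array is left out.

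The genes most like Cd40 over the 6 arrays, by the root mean square difference of values centred on each gene's mean, were Ly86 (0.202), Anxa1 (0.226) and Pros1 (0.288), with log2 fold changes of 1.26, 1.52 and 1.33. Ly86 encodes MD-1, a partner of a Toll-like receptor homologue on B cells and macrophages, and Anxa1 encodes annexin A1. Those nearest to Cd86 were Dph5, Atp6ap2 and Tm2d2, at 0.346 to 0.406, and those nearest to Cd80 were Cpd, Clock and Synj1, at 0.205 to 0.259. For Cd28 they were Rwdd4a, Pet100 and Dcps, at 0.098 to 0.212, and for Cd40lg Utf1, Alg6 and Cyb561a3, at 0.218 to 0.226. With 6 arrays and 22180 genes such likeness is a description of these arrays.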

How the data were processed

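Macrophages sorted from heart grafts were measured on 6 arrays, 3 treated and 3 untreated, each labelled from 15 ng of RNA. The authors deposited log2 expression values for 41345 probe sets, for which the submitters' processing notes name RMA and Affymetrix Expression Console; versions, genome build and sort markers are not given in the sources used here. RMA corrects background, quantile-normalizes and summarises probes. Platform annotation gave 1 symbol to 23521 probe sets, several to 1814 and none to 16010, and the brightest with 1 symbol stood for each of 22180 genes, with no filter or further normalization. The identifiers of the 9 measured members matched their symbols in RefSeq's GRCm38.p6 table. No member had a second probe set with 1 symbol.

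The comparison of groups used limma (version 3.58.1, R 4.3.3; lmFit and eBayes with group as sole term), two-sided, with Benjamini-Hochberg adjustment over all genes, tested on simulated data first. Each fold change is a log2 difference, treated minus untreated. The members and lists were chosen with earlier results of these data known. Named genes were all members, the 4 of each pathway list and 2 of each marker list with the smallest unadjusted p, and the 3 nearest to 5 members. The genes so chosen from the T cell, neutrophil, endothelial and cardiomyocyte lists are not printed. Adgre1, Cd68, Cd3e and H2bc12 were named outside this rule, and others are marked in the text. Arrays have no read depth, and their number limits the precision. Replicate numbers were not taken as pairs.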

Additional observations from a re-analysis of the deposited data

How the results depend on the processing

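Of 14 alternatives (median centring, quantile normalization, filters at the 25th percentile and the median of brightness, trend and robust, array weights, a replicate block, the mean of probe sets, each array left out), none brought a member past an adjusted p of 0.05, the smallest being 0.14 for Cd40 with array weights. Over all genes 0 passed, except 1 with array weights (H2bc12). The count of members at an unadjusted p under 0.05 stayed at 4 except with arrays left out, where it ranged from 2 to 4. Cd40, Cd86, Cd28, Cd40lg and Traf1 kept their direction in the 9 settings that alter a member's fold change; the other 5 (both filters, trend and robust, the block, the mean of probe sets) leave it as it is. Directions turned for Traf5 with median centring (-0.0485) and quantile normalization (-0.0464), for Traf6 (0.0478) and Cd80 (0.90) with array weights, and for Akt1 with quantile normalization (0.0366). With 1 array left out in turn the log2 fold change ranged from -0.17 to 0.41 for Traf2, -0.25 to 0.31 for Traf5, -0.345 to 0.0683 for Traf6 and -0.73 to 0.90 for Cd80. The cause was not tested. Same-numbered treated and untreated samples had correlations of deviations of 0.136, 0.135 and -0.024. mTORi-HDL 1 and 2 each correlated best with the untreated sample of the same number, and mTORi-HDL 3 with untreated 2 (0.126). Correlations this weak cannot decide whether the numbers pair the samples. With the replicate number as a block 0 genes passed and 4 members were at an unadjusted p under 0.05, as without it. Their unadjusted p (limma) with the block was 0.0021 for Cd86, 0.0035 for Cd28 and 0.0243 for Cd40lg, each smaller than without it. For Cd40 it was 0.0073, which was larger. Separate values for further probe sets of a member could not be run under the rule, since no member had a second one with 1 symbol. Traf5 had 1 further probe set annotated with several symbols, which was not analysed. The 6 arrays limit all of these results.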
